A study of Mus musculus with 8 samples.

Results

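The genes described here are 9 genes of cellular iron storage, transport and regulation: Fth1, Ftl1 and its copy Ftl1-ps1, Ncoa4, Tfrc, Slc11a2, Slc40a1, Aco1 and Ireb2. They were taken by symbol from the 27710 genes in each count file, and all 9 were found in all 8 libraries. RNA was measured in cultured mouse bone marrow cells from which mature, lineage-positive cells had been removed, grown with cytokines that included SCF, Flt3L and IL3. The first group is Alkbh5-deficient cells fed s4U (labelled Vav-iCre+; Alkbh5fl/fl, 3 libraries), and the second is WT cells fed s4U (3 libraries). The nucleoside s4U (4-thiouridine) marks RNA made during feeding and was given at 100 µM for 2 h. The remaining libraries, 1 Alkbh5-deficient and 1 WT, are labelled with agent None and are called unlabelled. TimeLapse chemistry, a treatment that converts s4U so that it reads as another base, was applied to the RNA of all 8 libraries. The gene removed, Alkbh5, encodes an enzyme that takes the methyl group off N6-methyladenosine (m6A) in RNA. Vav-iCre is a recombinase active in blood cells, so cells of other origin in the cultures would keep the gene. The labels do not say whether the WT cells carried Vav-iCre or floxed alleles. The title of the series concerns RNA stability of metabolic transcripts, and the genotype comparison below asks which of the iron transcripts differed in level.

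Cells take up iron bound to transferrin through the receptor made from Tfrc, move it into the cytosol through the divalent metal transporter of Slc11a2, and store the excess in ferritin, a shell of heavy (Fth1) and light (Ftl1) chains. Ncoa4 encodes the receptor that carries ferritin to lysosomes for breakdown, and Slc40a1 encodes ferroportin, the iron exporter, which is abundant in macrophages that recycle iron from red cells. The proteins of Aco1 (IRP1) and Ireb2 (IRP2) bind hairpins called iron-responsive elements when iron is low. Binding near the start of ferritin mRNA blocks its translation, and binding after the coding part of Tfrc mRNA protects it from decay. In marrow the receptor is best known for supplying the large iron demand of red cell precursors.

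The hairpins are shown because they divide the members into transcripts with the element before and after the coding part. A match had to have an unpaired C, a stem of 5 pairs (G with T allowed) and the loop CAGTGN between the strands of the stem. It was searched on the sense strand of 1 transcript per gene in GENCODE M21 (GRCm38). In each line the capitals mark the unpaired C and the loop.
Fth1, 5′ UTR: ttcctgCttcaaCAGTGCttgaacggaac
Ftl1, 5′ UTR: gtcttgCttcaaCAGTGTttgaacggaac
Ftl1-ps1, 5′ UTR: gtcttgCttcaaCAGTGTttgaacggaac
Slc40a1, 5′ UTR: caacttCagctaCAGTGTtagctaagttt
Tfrc element 1, 3′ UTR: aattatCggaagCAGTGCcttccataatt
Tfrc element 2, 3′ UTR: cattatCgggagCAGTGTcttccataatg
Tfrc element 3, 3′ UTR: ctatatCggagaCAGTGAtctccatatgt
Tfrc element 4, 3′ UTR: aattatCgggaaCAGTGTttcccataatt

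The Fth1 element lies at chr19:9982732-9982760 (plus strand), that of Ftl1 at chr7:45459779-45459807 (minus strand) and that of Ftl1-ps1 at chr13:74406428-74406456 (plus strand). The Slc40a1 element lies at chr1:45925465-45925493 (minus strand). The Tfrc elements run over chr16:32631219-32631247, chr16:32631598-32631626, chr16:32631663-32631691 and chr16:32631710-32631738 (plus strand). Ftl1 and Ftl1-ps1 carried the same 29 bases. Among 21877 coding genes, 0.096% had such a match in the 5′ UTR and 0.507% in the 3′ UTR of the transcript searched. Slc11a2, Aco1, Ireb2 and Ncoa4 had no match to these letters. The search cannot find an element with a bulge or mismatch in the stem, so no match does not show that an element is absent. For the same reason the genes shown may hold further elements.

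As a second description of sequence, the 5 letters GGACT, a frequent context of m6A, were counted on the sense strand of the same transcripts. Slc40a1, Aco1 and Tfrc held 6 each, Ireb2 held 4, Slc11a2 held 3, Ncoa4 held 2, Ftl1 held 1, and Fth1 and Ftl1-ps1 held 0. Of all coding genes, 87.0% held at least 1. These counts grow with transcript length. Per kb of transcript the values were 1.78 for Slc40a1, 1.57 for Aco1, 1.23 for Tfrc, 1.03 for Ftl1 and 0.99 for Slc11a2. Ireb2 was at 0.69 and Ncoa4 at 0.49 per kb, beside a median of 1.01 per kb over all coding genes. A match does not say that the site is methylated.

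The libraries held between 5723245 and 8615997 gene counts. Alkbh5 had 0, 1 and 1 counts in Alkbh5-deficient fed libraries against 1166, 1479 and 1061 counts in WT fed libraries, and 1 count in the Alkbh5-deficient against 1263 counts in the WT unlabelled library. The progenitor granule gene Mpo reached between 3011 and 8035 CPM (counts per 1000000 gene counts, scaled with TMM over the 8 libraries). Of the neutrophil genes expressed later, Ly6g stayed between 0.999 and 6.48 CPM, while Ngp was between 219 and 1016 CPM and S100a9 between 248 and 700 CPM. Replicate 1 of both genotypes stood apart: summed B cell markers were at 26.0 CPM (Alkbh5-deficient) and 63.2 CPM (WT) there, against 156 to 290 CPM in the other 6 libraries, and summed erythroid markers were at 870 CPM (Alkbh5-deficient) and 1033 CPM (WT), against 1606 to 2088 CPM. WT fed replicate 3 stood apart in another way, with 14.2% of its gene counts on the ribosomal-repeat gene Gm26917, against 6.33% to 8.34% in the other 7. Xist, from the inactive X, had at most 2 counts in fed replicates 1 and 3 of each genotype, and Ddx3y, from the Y, had 0 counts in fed replicate 2 of each. Both unlabelled libraries had both RNAs, so they held cells of both sexes. Of 67 tested markers of erythroid, macrophage, neutrophil, mast or basophil and B cells, 0 passed between genotypes in edgeR or DESeq2. An unadjusted edgeR p under 0.05 was found for 4 of them, against 1.13% of all genes. Macrophage markers were higher in Alkbh5-deficient fed cells for 14 of 16 (median log2 fold change over WT 0.23). The other lists leaned lower: erythroid 14 of 19 (median -0.19), neutrophil 11 of 15 (-0.15), mast or basophil 7 of 7 (-0.29) and B cell 7 of 10 (-0.16). In bulk libraries fewer cells of a type and less RNA per cell cannot be told apart.

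Fth1 and Ftl1, the ferritin chain genes, had the highest levels of the 9. Fth1 (ENSMUSG00000024661.7, chromosome 19, 9980598 to 9985098, plus strand) encodes the heavy chain, which oxidises iron for storage. It had 683, 722 and 686 CPM in Alkbh5-deficient fed libraries, against 733, 763 and 670 CPM in WT fed libraries. The unlabelled libraries had 588 CPM (Alkbh5-deficient) and 627 CPM (WT). Fth1 was the steadiest of the 9: its coefficient of variation over the 6 fed libraries was 5.05%, and 1.92% of the 7098 genes with at least 20 CPM had a smaller one.

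Ftl1 (ENSMUSG00000050708.16, chromosome 7, 45457944 to 45459884, minus strand) encodes the light chain, which helps the iron core to form. Alkbh5-deficient fed libraries held 851, 739 and 663 CPM of it, against 867, 720 and 1010 CPM in WT fed libraries. Both unlabelled libraries had 553 CPM, below each of the 6 fed ones. WT fed replicate 3 was the highest library for Ftl1 and the lowest fed library for Fth1, with 0.663 Fth1 counts per Ftl1 count. That ratio was 0.802, 0.977 and 1.03 in Alkbh5-deficient fed libraries, 0.845 and 1.06 in the other WT fed libraries, and 1.06 (Alkbh5-deficient) and 1.13 (WT) in the unlabelled ones.

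Ftl1-ps1 (ENSMUSG00000062382.9, chromosome 13, 74399694 to 74407346, plus strand) is a copy of Ftl1 that GENCODE M21 lists as protein-coding. Its transcript matched that of Ftl1 with 99.6% identity over 910 bases, with 4 mismatches, and 73.4% of the 50-base windows of Ftl1 occurred in it unchanged. Reads from either gene may thus be counted for the other, and the levels of both are uncertain. Ftl1-ps1 had 16.6, 21.2 and 15.7 CPM in Alkbh5-deficient fed libraries, against 18.5, 17.8 and 31.2 CPM in WT fed libraries, with 6.85 CPM (Alkbh5-deficient) and 7.12 CPM (WT) in the unlabelled libraries. Every fed library was above both unlabelled ones, and WT fed replicate 3 was again the highest.

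Counted against Ftl1 within a library, Ftl1-ps1 reached 1.95%, 2.87% and 2.37% in Alkbh5-deficient fed libraries and 2.13%, 2.48% and 3.09% in WT fed libraries. The unlabelled libraries had 1.24% (Alkbh5-deficient, 95% exact interval 0.950% to 1.59%) and 1.29% (WT, 0.967% to 1.68%). These intervals cover counting error only. The share does not depend on how the libraries are scaled, and both unlabelled values lay below the 6 fed ones, while the genotypes overlapped. It does depend on how reads are divided between these near-identical genes. Whether that division was alike in fed and unlabelled libraries was not tested.

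Ferritin RNA as a whole (Fth1, Ftl1 and Ftl1-ps1 summed) came to 1551, 1482 and 1365 CPM in Alkbh5-deficient fed libraries, against 1618, 1501 and 1711 CPM in WT fed libraries, with 1148 CPM (Alkbh5-deficient) and 1187 CPM (WT) in the unlabelled ones. The genotypes overlapped on this scale. As a plain share of gene counts the same sum was 0.145%, 0.151% and 0.142% in Alkbh5-deficient fed libraries against 0.154%, 0.155% and 0.154% in WT fed libraries, which did not overlap, and the unlabelled libraries were at 0.122% (Alkbh5-deficient) and 0.128% (WT). The separation of the genotypes thus depends on the scaling, and this sum was not tested. How many of all genes separate the genotypes on the plain share was not computed.

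Ncoa4 (ENSMUSG00000056234.15, chromosome 14, 32159865 to 32179855, plus strand), the ferritin cargo receptor, had 47.2, 55.9 and 56.1 CPM in Alkbh5-deficient fed libraries, against 48.2, 52.7 and 55.9 CPM in WT fed libraries. Unlabelled libraries had 64.0 CPM (Alkbh5-deficient) and 59.5 CPM (WT), above every fed library. Of its 50-base windows, 43.1% also occurred in the processed pseudogene Gm6768, which had 70 to 119 counts per library. After Fth1 it was the member with the smallest spread over the fed libraries, with a coefficient of variation of 7.67%.

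Iron uptake was represented by a strongly and a weakly expressed gene. Tfrc (ENSMUSG00000022797.16, chromosome 16, 32608920 to 32632794, plus strand), the transferrin receptor gene, had 136, 202 and 233 CPM in Alkbh5-deficient fed libraries, against 163, 247 and 116 CPM in WT fed libraries. Unlabelled libraries were at 259 CPM (Alkbh5-deficient) and 270 CPM (WT), above every fed library. WT fed replicate 3, the library with the most Ftl1, had the least Tfrc, although its summed erythroid markers (1936 CPM) were not low. Relative to summed ferritin counts, Tfrc came to 8.78%, 13.6% and 17.1% in Alkbh5-deficient fed libraries, 10.1%, 16.4% and 6.80% in WT fed libraries, and 22.5% (Alkbh5-deficient) and 22.7% (WT) in the unlabelled pair.

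Slc11a2 (ENSMUSG00000023030.16, chromosome 15, 100387898 to 100425072, minus strand), the divalent metal transporter gene, had 13.7, 23.0 and 19.1 CPM in Alkbh5-deficient fed libraries, against 14.6, 23.7 and 19.98 CPM in WT fed libraries. Its unlabelled values were 21.5 CPM (Alkbh5-deficient) and 24.1 CPM (WT). In both genotypes replicate 1 was the lowest and replicate 2 the highest fed library, so libraries with the same number were closer to each other than to their own genotype.

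Slc40a1, the ferroportin gene (ENSMUSG00000025993.10, chromosome 1, 45908068 to 45926523, minus strand), varied most. It had 11.4, 48.2 and 56.7 CPM in Alkbh5-deficient fed libraries, against 25.9, 50.1 and 29.1 CPM in WT fed libraries, and 50.3 CPM (Alkbh5-deficient) and 42.0 CPM (WT) without label. Its coefficient of variation over the fed libraries was 47.4%, and 97.6% of genes with at least 20 CPM had a smaller one. The highest fed library had 4.99 times the level of the lowest, Alkbh5-deficient fed replicate 1.

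Part of the list of 18 macrophage markers, from the cells known for high ferroportin, was low where Slc40a1 was low. In replicate 1 of both genotypes 13 of the 18 were below the other 4 fed libraries, 4 were above them, and Adgre1 was neither. Cd163, the haemoglobin scavenger receptor gene, had 3.14, 71.5 and 64.7 CPM in Alkbh5-deficient fed libraries, against 2.16, 58.0 and 28.1 CPM in WT fed libraries, and 49.4 CPM (Alkbh5-deficient) and 41.7 CPM (WT) in the unlabelled libraries. Spic, a transcription factor gene of iron-recycling macrophages, had 0.897, 7.79 and 6.50 CPM in Alkbh5-deficient fed libraries, against 0.333, 6.44 and 1.94 CPM in WT fed libraries, and 8.16 CPM (Alkbh5-deficient) and 5.82 CPM (WT) without label. The 3 fed libraries with the least Slc40a1 were thus the 3 with the least Cd163 and Spic. C1qa, a complement gene of tissue macrophages, was low only in replicate 1 (4.03 CPM in Alkbh5-deficient and 1.66 CPM in WT cells, against 39.6 to 49.3 CPM in the other fed libraries). The 4 that were highest in replicate 1 were Cd68, Csf1r, Gpnmb and Trem2. Csf1r, the receptor gene for the macrophage growth factor, had 399, 205 and 223 CPM in Alkbh5-deficient fed libraries, against 309, 211 and 209 CPM in WT fed libraries. Apoe, C1qc and Marco had their highest level in WT fed replicate 3, where Slc40a1 was low. Mrc1, Mertk and Vcam1 were low in that library too, while Axl, C1qb and Siglec1 were not. The pattern was not particular to macrophage markers, since summed B cell markers were also lowest in the 3 fed libraries with the least Slc40a1. They were at 26.0 CPM in Alkbh5-deficient fed replicate 1, 63.2 CPM in WT fed replicate 1 and 156 CPM in WT fed replicate 3.

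Summed over all 18 markers the level was 786, 1334 and 1272 CPM in Alkbh5-deficient fed libraries, against 700, 1177 and 1207 CPM in WT fed libraries, with 989 CPM (Alkbh5-deficient) and 851 CPM (WT) unlabelled. Timd4 and Marco had 0 counts in Alkbh5-deficient fed replicate 1, Marco had 0 counts in WT fed replicate 1, and each marker was detected in the other 6 libraries. The part of these markers in the level of Slc40a1 was not tested.

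**Figure D1:**
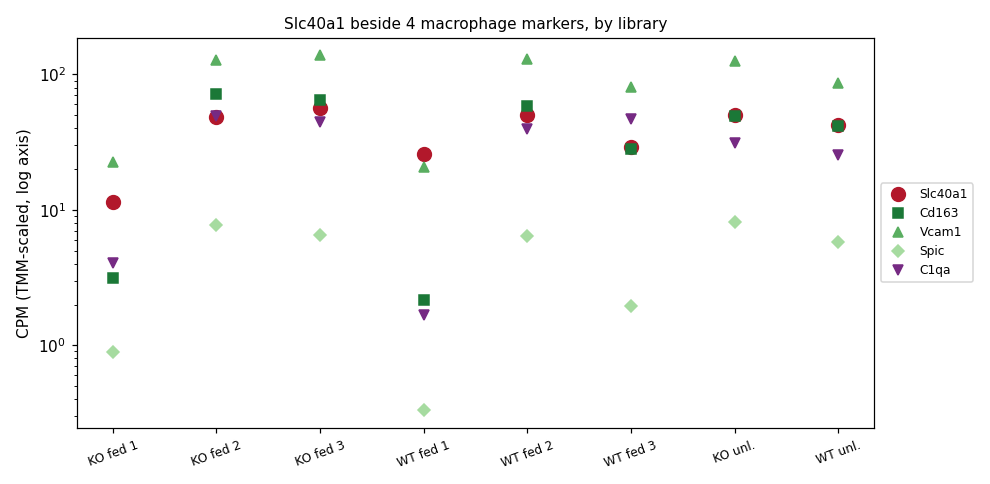
Level of Slc40a1 and of 4 of the 13 macrophage markers that were low in replicate 1, in each library (TMM-scaled CPM, log axis; KO is Alkbh5-deficient, unl. is unlabelled, numbers are replicates). In replicate 1 of both genotypes all 5 genes are at their lowest fed values, with Slc40a1 at 11.4 and 25.9 CPM, and in WT fed 3 Slc40a1, Cd163 and Spic are low while C1qa is at 46.9 CPM.

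In Alkbh5-deficient fed libraries the regulators had means of 30.5 ± 4.98 CPM (Aco1) and 44.2 ± 8.99 CPM (Ireb2). In WT fed libraries the means were 33.2 ± 2.99 CPM (Aco1) and 36.1 ± 11.1 CPM (Ireb2, SD, n = 3 each). Aco1 (ENSMUSG00000028405.9, chromosome 4, 40143081 to 40198338, plus strand), which encodes IRP1, had 36.2, 26.9 and 28.4 CPM in Alkbh5-deficient fed libraries, against 36.6, 31.9 and 31.0 CPM in WT fed libraries. Its unlabelled values were 27.2 CPM (Alkbh5-deficient) and 23.7 CPM (WT). Replicate 1 of each genotype was the highest library of its group.

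Ireb2 (ENSMUSG00000032293.8, chromosome 9, 54863789 to 54912530, plus strand), which encodes IRP2, had 35.1, 44.3 and 53.1 CPM in Alkbh5-deficient fed libraries, against 29.4, 48.9 and 30.1 CPM in WT fed libraries. The unlabelled libraries were at 79.3 CPM (Alkbh5-deficient) and 78.8 CPM (WT), well above each of the fed ones. Within the fed libraries Ireb2 was lowest where Tfrc was low, in replicate 1 of both genotypes and in WT fed replicate 3.

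**Figure D2:**
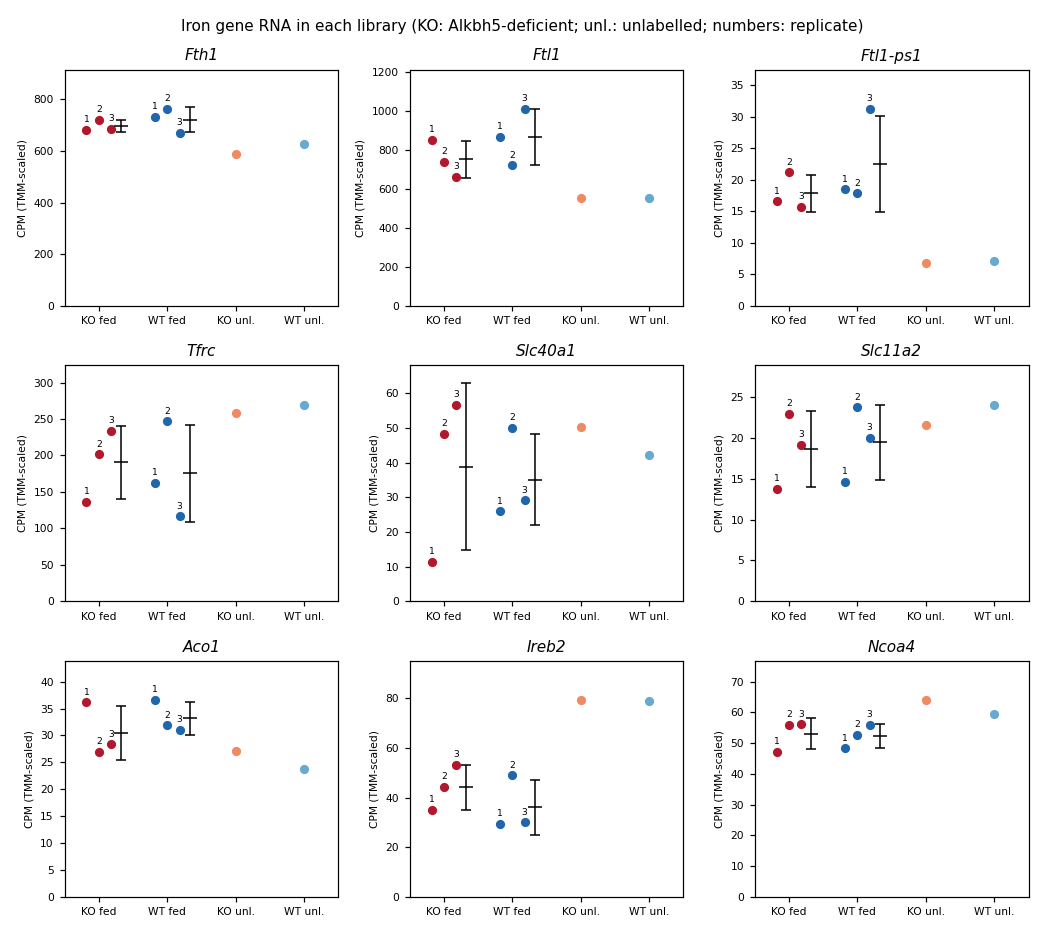
RNA level of each iron gene (TMM-scaled CPM, axes start at 0), 1 point per library, with mean and SD beside the fed groups (n = 3 each); numbers are replicates. Fed genotypes overlap for all 9 genes, while Ftl1 and Ftl1-ps1 lie lower and Tfrc and Ireb2 higher in both unlabelled libraries.

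Levels of different genes were compared per kb of the transcript searched above. In Alkbh5-deficient fed libraries the order began with Ftl1 at 776 ± 98.0 CPM per kb, Fth1 at 467 ± 14.7 and Tfrc at 38.9 ± 10.1 (SD, n = 3). In WT fed libraries these levels were 894 ± 150, 483 ± 31.9 and 35.9 ± 13.5 CPM per kb (SD, n = 3). With its shorter coding transcript (929 bases) Fth1 reached 750 ± 23.6 CPM per kb in Alkbh5-deficient fed and 777 ± 51.3 CPM per kb in WT fed libraries, within the spread of Ftl1, so the order of the chains depends on the transcript used. Ftl1-ps1 followed at 19.0 ± 3.12 CPM per kb in Alkbh5-deficient fed and 24.0 ± 8.06 CPM per kb in WT fed libraries (SD, n = 3 each). In WT fed libraries its spread met that of Tfrc. The other 5 lay between 6.15 and 13.1 CPM per kb in Alkbh5-deficient fed libraries and between 6.26 and 12.9 CPM per kb in WT fed libraries, in the order Ncoa4, Slc40a1, Aco1 and then Ireb2 and Slc11a2, which changed places between genotypes. Among these 5 the spreads of Ncoa4 and Slc40a1, of Slc40a1 and Aco1, of Aco1 and its lower neighbour and of Ireb2 and Slc11a2 overlapped in both groups. In both unlabelled libraries Ftl1, Fth1, Tfrc and Ncoa4 were the first 4. Over the length of all annotated exons the first 4 in the fed groups were the same, and Aco1 came before Ncoa4.

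In the genotype comparison none of the 9 iron genes passed the threshold. With edgeR's quasi-likelihood test and Benjamini-Hochberg adjustment over 13342 genes, 0 of 9 members had an adjusted p under 0.05, against 0.0075% of all genes, and 0 members had an unadjusted p under 0.05, against 1.13% of all genes. DESeq2 called 0 members and 0.015% of all genes. Non-overlapping groups were found for 0 of 9 members, against 5.68% of all genes (2.62% higher and 3.06% lower in Alkbh5-deficient cells). The median log2 fold change (Alkbh5-deficient over WT) was -0.05 over the members, 4 of which were positive, and 0.00 over all genes.

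Ferritin chains had values below 0 in this comparison. The log2 fold change of Fth1 was -0.05 ± 0.15, that of Ftl1 was -0.21 ± 0.18 and that of Ftl1-ps1 was -0.33 ± 0.26 (SE, edgeR, adjusted p = 1.00 for each). Between libraries of the same number, Ftl1 gave -0.03, 0.04 and -0.61 for numbers 1, 2 and 3 on the log2 scale, so its negative value rested on number 3, which holds WT fed replicate 3. Without that WT library the value of Ftl1 was -0.08. Ftl1-ps1 gave -0.15, 0.25 and -0.99 for the same numbers and was at -0.02 without that library.

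Uptake and export genes were undetermined at this spread. Tfrc was at 0.11 ± 0.31, Slc11a2 at -0.07 ± 0.27 and Slc40a1 at 0.14 ± 0.53 (log2 fold change, SE, edgeR, adjusted p = 1.00 for each). Tfrc gave -0.26, -0.29 and 1.00 for numbers 1, 2 and 3, and it turned to -0.10 without WT fed replicate 3. Slc40a1 gave -1.19, -0.05 and 0.96, and with the replicate number as a block its value was -0.05 ± 0.36. The smallest standard error among these 3 transport genes was that of Slc11a2, whose 3 same-number values were -0.09, -0.05 and -0.06.

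Regulators and the cargo receptor gave log2 fold changes of 0.28 ± 0.26 for Ireb2, -0.13 ± 0.18 for Aco1 and 0.02 ± 0.16 for Ncoa4 (SE, edgeR, adjusted p = 1.00 for each). Same-number values were 0.25, -0.14 and 0.82 for Ireb2 and -0.02, -0.24 and -0.13 for Aco1. Without WT fed replicate 2 the value of Ireb2 was 0.57, and without Alkbh5-deficient fed replicate 3 it was 0.12. Aco1 was at -0.26 without Alkbh5-deficient fed replicate 1 and at -0.047 without Alkbh5-deficient fed replicate 2. Only Slc11a2 and Aco1 of the 9 had the same sign in all 3 numbers, in each case negative, with a fitted value smaller than its standard error. The share of all genes with the same sign in all 3 numbers was not computed, so this count is description only. The pairing of libraries by number is itself uncertain, as given under the processing of the data.

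The unlabelled pair, 1 library per genotype with no replicate check, gave ratios of Alkbh5-deficient to WT between 89.5% and 119.5%. They were 93.8% for Fth1 (95% counting interval 90.2% to 97.5%), 100% for Ftl1 (96.0% to 104%), 95.9% for Tfrc (90.3% to 102%) and 101% for Ireb2 (90.3% to 112%). Slc40a1 had the highest ratio, 119.5% (103% to 138%), beside a Cd163 level of 49.4 CPM in the Alkbh5-deficient and 41.7 CPM in the WT library. The intervals cover counting error only. For Ftl1-ps1, Slc11a2, Aco1 and Ncoa4 the interval included 100%.

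**Figure D3:**
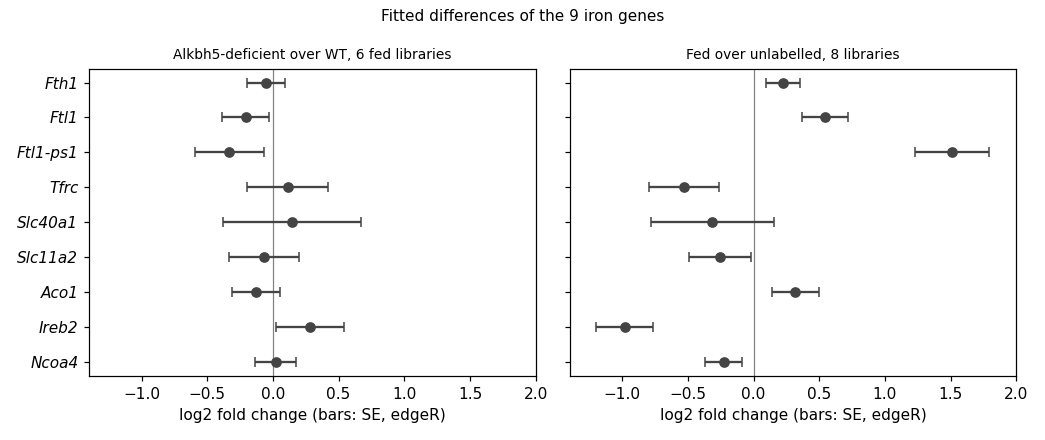
Log2 fold change of each gene with its standard error (edgeR), Alkbh5-deficient over WT in the 6 fed libraries on the left and fed over unlabelled in 8 libraries on the right. All genotype values lie between -0.33 and 0.28, and on the right Ftl1-ps1 is highest at 1.51 and Ireb2 lowest at -0.98.

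Ferritin RNA was higher, and Tfrc, Ireb2 and Ncoa4 RNA lower, in every fed library than in either unlabelled one, but no member passed the threshold of the main test. In the fit with genotype as a term, 0 of 9 members had an edgeR adjusted p under 0.05, against 0.0267% of 14988 genes, while 3 of 9 had an unadjusted p under 0.05, against 19.6% of all genes. For 6 of 9 members the 6 fed libraries and the 2 unlabelled ones did not overlap, against 30.9% of all genes. Fth1, Ftl1 and Ftl1-ps1 were higher in every fed library (14.7% of all genes were), and Tfrc, Ireb2 and Ncoa4 were lower in every fed library (16.2% of all genes were). When CPM was computed without TMM, Fth1 overlapped and the other 5 did not, against 32% of all genes (9.46% higher and 22.5% lower in fed libraries). Since the unlabelled libraries held cells of both sexes and each fed library cells of a single sex, feeding and a different source of cells cannot be told apart. All 15 neutrophil markers had a positive log2 fold change (median 0.76), of which 0 passed in edgeR. DESeq2 called 3 of the 14 with an adjusted p, beside 4.12% of all genes with one (higher in fed libraries). The summed level of the 15 was between 7796 and 12393 CPM in Alkbh5-deficient fed and between 6999 and 13792 CPM in WT fed libraries. Unlabelled it was 6039 CPM (Alkbh5-deficient) and 5252 CPM (WT). Mpo was the largest part of this sum. Mpo, Elane, Prtn3, Ctsg and Camp were above both unlabelled libraries in every fed library, but the others were not. In WT fed replicate 3 Ngp (219 CPM) and S100a9 (248 CPM) were below both unlabelled libraries. Mmp8 was high only in fed replicate 1 (100 CPM in Alkbh5-deficient and 98.4 CPM in WT cells). Mast cell and basophil markers were positive in 7 of 7 tested (median 0.34). In edgeR 0 of them passed, and in DESeq2 1 of the 6 with an adjusted p, beside the same 4.12%. B cell markers were negative in 8 of 10 (median -0.34), and 0 passed in either, with 6 given an adjusted p in DESeq2. Summed B cell markers were at 26.0 CPM (Alkbh5-deficient) and 63.2 CPM (WT) in fed replicate 1. The other fed libraries, at 156 to 290 CPM, overlapped the unlabelled 195 CPM (Alkbh5-deficient) and 245 CPM (WT). The part of these cells in the values of the iron genes was not tested.

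Ftl1-ps1 had the highest log2 fold change (fed over unlabelled) of the members, 1.51 ± 0.28 (SE, edgeR, unadjusted p = 0.000345, adjusted p = 0.165). Ftl1 itself was at 0.54 ± 0.18 (adjusted p = 0.174, edgeR) and Fth1 at 0.22 ± 0.13 (adjusted p = 0.366, edgeR). With the counts of Ftl1 and Ftl1-ps1 summed before the fit, since they may share reads, the light chain was at 0.56 ± 0.18 (adjusted p = 0.171, edgeR). Aco1, at 0.32 ± 0.18 (adjusted p = 0.355, edgeR), was the remaining member above 0.

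Ireb2 had the lowest value, -0.98 ± 0.22 (SE, edgeR, unadjusted p = 0.00127, adjusted p = 0.165). Tfrc followed at -0.53 ± 0.27 (adjusted p = 0.301, edgeR), and Slc40a1, Slc11a2 and Ncoa4 lay between -0.31 and -0.23 (adjusted p from 0.381 to 0.746, edgeR). The calls depended on the tool and the filter. DESeq2 called 3 members, Ftl1 (adjusted p = 0.0449), Ftl1-ps1 (adjusted p = 0.000484) and Ireb2 (adjusted p = 0.0151). Of the 8593 genes to which DESeq2 gave an adjusted p, 7.59% were called (4.12% higher and 3.47% lower in fed libraries). Without the low-count filter edgeR called Ftl1-ps1 (adjusted p = 0.0318) and Ireb2 (adjusted p = 0.0454). They were among 37 genes called in that setting, whose share of all genes was not computed. Without fed replicate 1 of both genotypes Slc40a1 was at 0.00 in place of -0.31.

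Transcript length moved with these values. Over all tested genes with an annotated transcript the median log2 fold change (fed over unlabelled) was 0.34 for transcripts up to 1000 bases, 0.19 between 1000 and 2000, -0.01 between 2000 and 4000, -0.11 between 4000 and 6000 and -0.23 beyond 6000 bases. Genes of any type were counted in these classes, with 1879 in the shortest, of which 733 were coding. Quartiles of coding genes alone were not computed. Ftl1-ps1 (938 bases) and Ftl1 (968 bases) are in the short class, whose quartiles ran from 0.02 to 0.65. Ftl1 lay within that range and Ftl1-ps1 above it. Ireb2 (5770 bases) and Tfrc (4890 bases) are in the class of 4000 to 6000 bases, whose quartiles ran from -0.40 to 0.14, and both lay below it. Ncoa4 (4065 bases) lay within it. Aco1 (3832 bases), at 0.32, was above the upper quartile, 0.27, of its class of 2000 to 4000 bases. Across the 9 members, which share all libraries, length and log2 fold change had a Spearman rho of -0.82. The part of length in these differences was not tested.

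Ftl1, Tfrc and Ireb2 also moved with length library by library, and Ftl1-ps1 did so less closely. The median log2 deviation of coding transcripts up to 1000 bases from their mean over libraries was 0.23, -0.00 and -0.04 in Alkbh5-deficient fed libraries, 0.22, 0.01 and 0.12 in WT fed libraries, and -0.23 (Alkbh5-deficient) and -0.25 (WT) in the unlabelled ones. For transcripts over 4000 bases it was -0.07, -0.01 and 0.02 in Alkbh5-deficient fed libraries, -0.10, -0.00 and -0.08 in WT fed libraries, and 0.14 in each unlabelled one. Replicate 1 of both genotypes and WT fed replicate 3, the fed libraries with much short and little long RNA, were those with the highest Ftl1 and the lowest Tfrc and Ireb2. Ftl1-ps1, the shortest member, deviated by 0.47 in Alkbh5-deficient fed replicate 2, where the short class was at -0.00, and by 0.12 in Alkbh5-deficient fed replicate 1, where it was at 0.23.

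**Figure D4:**
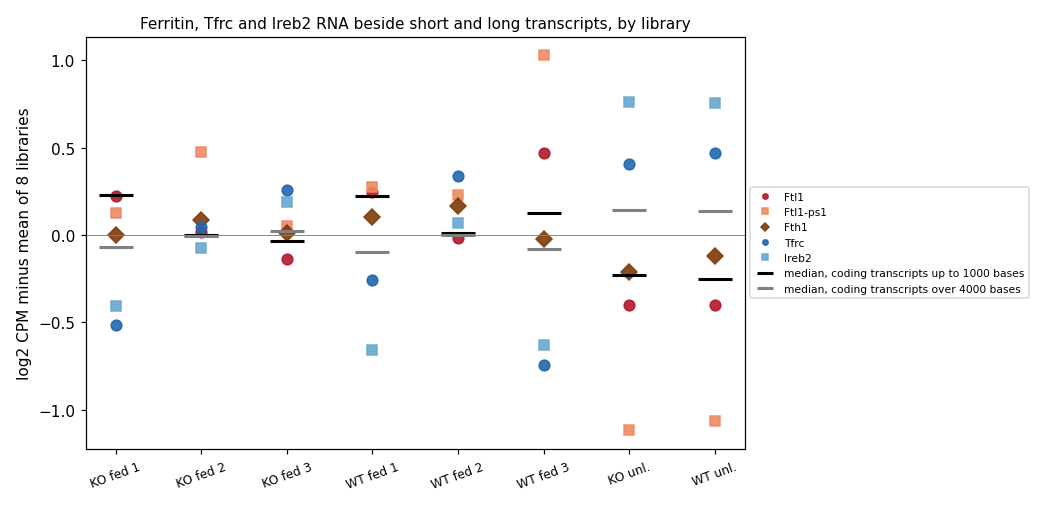
Deviation of log2 CPM from the mean of 8 libraries for 5 iron genes (points) in each library (KO is Alkbh5-deficient, unl. is unlabelled, numbers are replicates), beside the median deviation of coding genes with transcripts up to 1000 bases (black bars) and over 4000 bases (grey bars). Ftl1 lies on the side of the black bars, and Tfrc and Ireb2 on the other side, in KO fed 1, WT fed 1, WT fed 3 and both unlabelled libraries, with Ftl1 at 0.47 and Tfrc at -0.74 in WT fed 3.

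Whether the genotype difference itself differed between fed and unlabelled libraries was asked with an interaction term. In edgeR 0 of 9 members passed (0% of all genes did) and 0 members had an unadjusted p under 0.05, against 0.16% of all genes. DESeq2 also called 0 members and 0% of all genes. Interaction values ran from -0.32 for Aco1 to 0.28 for Ireb2 on the log2 scale, with standard errors from 0.30 for Fth1 to 1.01 for Slc40a1.

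Other genes of iron handling gave the wider view. Of 70 listed genes for transferrin handling, mitochondrial iron, iron-sulfur clusters, haem transport and IRP control, 67 were in the files and 56 were tested between genotypes. None passed in edgeR or DESeq2 (0 of 56, with 0 at an unadjusted edgeR p under 0.05), 28 had a positive and 28 a negative value, and the median was 0.00, as over all genes. The smallest p belonged to Nfs1, the cysteine desulfurase that supplies sulfur for iron-sulfur clusters, with 24.5 ± 4.38 CPM in Alkbh5-deficient fed and 32.2 ± 1.57 CPM in WT fed libraries (SD, n = 3 each), for a log2 value of -0.39 ± 0.20 (SE, adjusted p = 1.00, edgeR). Slc25a28, for a mitochondrial iron importer, was at -0.27 ± 0.17. Abcg2, for a transporter of porphyrins, was at 0.36 ± 0.24.

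Between fed and unlabelled libraries 57 of these genes were tested, 32 had a positive value, and the median was 0.04, against 0.03 over all genes. None passed in edgeR or in DESeq2, which gave 48 of them an adjusted p. An unadjusted edgeR p under 0.05 was found for 14, beside 19.6% of all genes. Fbxl5, the iron-sensing subunit of the ligase that marks the Ireb2 protein for breakdown, had 56.3 ± 9.56 CPM in Alkbh5-deficient fed and 53.5 ± 17.7 CPM in WT fed libraries (SD, n = 3 each), against 90.4 CPM (Alkbh5-deficient) and 86.8 CPM (WT) unlabelled. Its log2 value was -0.69 ± 0.23 (SE, adjusted p = 0.178, edgeR), and that of Cul1, the scaffold of the same ligase, was -0.65 ± 0.20 (adjusted p = 0.171, edgeR). Abcb8, for a mitochondrial transporter, was at 0.70 ± 0.22 (adjusted p = 0.173, edgeR) and Hfe, for a partner of the transferrin receptor, at 0.79 ± 0.28 (adjusted p = 0.185, edgeR). In the interaction test the 4 smallest p belonged to Abcg2 at 0.67 ± 0.48, Abcb10 at -0.54 ± 0.45, Cdc14a at -0.38 ± 0.36 and Hscb at 0.59 ± 0.56 (log2, SE, edgeR adjusted p = 1.00 for each).

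The genes most alike to 3 of the members across the 8 libraries were sought among 6914 other genes with a mean of at least 20 CPM, by Pearson r of log2 CPM, as a description with no test. Closest to Tfrc were Smarca5 (a chromatin remodelling ATPase gene, r = 0.99), Wrn (a DNA helicase gene, r = 0.98) and Samd9l (r = 0.98), with transcripts of 6113, 6262 and 5330 bases. Closest to Slc40a1 were Myb (a transcription factor gene of progenitors, r = 0.97), Rhag (a red cell membrane gene, r = 0.97) and Cdr2 (r = 0.96). Without replicate 1 of both genotypes Myb was at r = 0.95, Rhag at 0.78 and Cdr2 at 0.84. Closest to Fth1, which varied least, were Drosha, Rpl38 and Gatm (r from 0.92 to 0.93), and within the 6 fed libraries these were at r from 0.68 to 0.78.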

How the data were processed

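The authors deposited raw read counts per gene for each library, per the file headers. The submitters' processing notes name the tools HISAT2, STAR, HTSeq, cutadapt, Picard and DESeq2 and the builds mm10 and GRCm38. Roles, versions and the strand setting are not given there. Entries that name no gene made up 38.5% to 52.8% of the counts in a library and entered neither library sizes nor tests. Among them, 0 to 4 reads per library fell in both Ftl1 and the overlapping Gm22133.

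The main test was the quasi-likelihood test of edgeR 4.0.16 (R 4.3.3) with TMM scaling, the low-count filter at its defaults, robust dispersions and Benjamini-Hochberg adjustment over all genes tested, at a threshold of 0.05. DESeq2 1.42.0 was run as an alternative. Each SE is the absolute log2 value over the square root of F. All 9 members passed the filter. The scripts were tested on simulated data.

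Members, gene lists and markers were chosen with earlier results of these data known. Named genes were all members and, of other iron genes, up to 6 past the threshold or else the 4 with the smallest p and a mean of at least 5 CPM in each comparison. One gene that this rule names is not reported here. In that list 4 older symbols were matched to newer ones through RefSeq synonyms. The transcript per gene was the coding one of the best APPRIS level, then the longest, and Ftl1 and Ftl1-ps1 were aligned with BLAST 2.17.0.

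The labels do not say that replicates come from separate animals. Xist and Ddx3y counts show that replicate 2 of each fed group had cells of another sex than replicates 1 and 3, so at least those differ in source. Beyond that, part of the spread behind each p-value may be technical. Libraries all differed by more than sampling noise (chi-square per gene of 3.12 or more for each pair). Pairing was checked by correlating the deviations of same-numbered fed libraries, with numbers as labelled, after removing group means (r = 0.68, 0.29 and 0.19 for numbers 1, 2 and 3). Alkbh5-deficient 3 with WT 2 and Alkbh5-deficient 2 with WT 3 were at r = 0.35 each, so numbers 2 and 3 are not told apart by this check. A replicate block was fitted as well.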

Additional observations from a re-analysis of the deposited data

How the results depend on the processing

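The limits are 3 fed libraries per genotype, 1 unlabelled library each, fed replicate 1 with few B cell markers, and unlabelled libraries with cells of both sexes. Depth bears most on Ftl1-ps1, the member with the fewest counts, which had 63 (Alkbh5-deficient) and 55 (WT) in the unlabelled libraries.

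Between genotypes 0 members passed under all alternatives run. The count of genes passing was 1, and 2 with no low-count filter and 2 with DESeq2. With a replicate block Slc40a1 was at -0.049 in place of 0.14, and no other member changed sign and no call changed. Leaving out 1 library turned the sign of 4 members, whose log2 fold changes ranged from -0.25 to 0.11 (Slc11a2), from -0.25 to 0.58 (Slc40a1), from -0.036 to 0.10 (Ncoa4) and from -0.10 to 0.45 (Tfrc). Without both libraries numbered 3, an alternative chosen after seeing the data, Ftl1 was at 0.0012, Ftl1-ps1 at 0.058, Tfrc at -0.28 and Slc40a1 at -0.35. Fth1, Aco1 and Ireb2 kept their sign in all alternatives but not their size: Fth1 ran from -0.10 to -0.0074, Aco1 from -0.26 to -0.042 and Ireb2 from 0.013 (without both libraries numbered 3) to 0.58.

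Between fed and unlabelled libraries, members passing were 0, but 2 with no low-count filter and 3 with DESeq2, and genes passing were 4, but 37 with no low-count filter, 652 with DESeq2, 0 to 2 without 1 library, 0 within WT alone, 0 within Alkbh5-deficient cells alone and 1 without both fed libraries numbered 1. In that last setting, chosen after seeing the data, Slc40a1 was at 0.0013. The other 8 members kept their sign in all alternatives, with Ftl1-ps1 from 1.37 to 1.65 (adjusted p from 0.000484 to 0.966) and Ireb2 from -1.12 to -0.83 (adjusted p from 0.0151 to 0.966).

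Interaction values that changed sign without 1 library ranged from -0.49 to 0.32 (Slc40a1), -0.074 to 0.27 (Slc11a2), -0.42 to 0.049 (Ftl1-ps1) and -0.025 to 0.51 (Tfrc). The cause of these changes was not tested.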
